A study of Mus musculus with 4 samples.

Results

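Among testis cells of P15 pups, the germ cells that carried *Kit* and *Dnmt3b* transcripts but almost no *Dmrtb1*, little *Stra8* and almost no *Gfra1* or *Ret* were described across genes and by *Meioc* genotype. A barcode was a member when *Ddx4* and *Dazl* together had at least 3 UMIs (unique transcript molecules), *Kit* at least 2, *Dnmt3b* at least 2, *Dmrtb1* at most 1, *Stra8* fewer than 5 per 10000 UMIs and *Gfra1* with *Ret* at most 1, in cells with more than 1000 genes and less than 10% mitochondrial UMIs. This rule found 524 cells, which were 1.77% of the 29592 barcodes kept and 2.22% of the 23584 germ cells. The *Kit* limit left 9927 germ cells, *Dnmt3b* 3709, *Dmrtb1* 1755, *Stra8* 568 and *Gfra1* with *Ret* 524. The members were thus chosen by the measured UMIs of these 8 genes, whose levels and differences are given without a test. The working name of these cells was type A differentiating spermatogonia with high *Dnmt3b*, and, since the data fitted it only in part, they are called *Kit*/*Dnmt3b* cells here.

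Testes came from 2 wild-type and 2 *Meioc*-null pups at postnatal day 15 (P15), on a C57BL/6N background, 1 testis per pup and 1 library per testis. The *Meioc*-null pups carried *Meioc*tm1.1Dpc, and pups of both genotypes were also heterozygous for *Hspa2*tm1Dix and homozygous for a *ROSA26*-tdTomato reporter whose stop cassette was intact. Each batch was a littermate pair, wild type beside null, and batch and replicate numbers coincided. Interstitial cells were largely discarded when the tubules settled during dissociation. Values of 4 libraries are given throughout in a fixed order, the wild-type replicates 1 and 2 followed by replicates 1 and 2 of the *Meioc*-null genotype, and levels are the summed UMIs of a gate in CPM, that is, scaled by the UMI total of that gate in that library.

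Spermatogonia leave the undifferentiated, GFRA1- and RET-expressing pool in response to retinoic acid and begin to express the receptor tyrosine kinase KIT, which signals through phosphoinositide 3-kinase to support their divisions and survival. The differentiating cells then divide as type A, intermediate and type B spermatogonia before entering meiosis as preleptotene spermatocytes. DNMT3B is a de novo DNA methyltransferase, and SOHLH1 and SOHLH2 are germ cell basic helix-loop-helix factors needed for differentiation. DMRTB1 (DMRT6) is expressed in later differentiating spermatogonia, whereas STRA8 responds to retinoic acid both at the onset of differentiation and before meiosis. MEIOC, acting with the RNA helicase YTHDC2, is required for the passage from the mitotic to the meiotic cell cycle.

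Basic helix-loop-helix factors bind the E-box CANNTG, and the start-site windows of *Kit*, *Dnmt3b*, *Sohlh1* and the homeobox gene *Esx1* are shown for that reason. *Esx1* was higher in the members than in *Gfra1*/*Ret* and *Stra8*-high cells but not than in *Dmrtb1* cells, gates that are defined below. The windows run from 250 bases before to 50 bases after the start, 5′ to 3′ on the strand of the gene, with each CANNTG in capitals. The motif reads the same on both strands in its fixed letters. Sequences are from RefSeq (GRCm38.p6): *Kit* at chr5:75574737-75575036 (plus strand), *Dnmt3b* at chr2:153649199-153649498 (plus strand), *Sohlh1* at chr2:25847199-25847498 (minus strand) and *Esx1* at chrX:137120277-137120576 (minus strand).
Kit: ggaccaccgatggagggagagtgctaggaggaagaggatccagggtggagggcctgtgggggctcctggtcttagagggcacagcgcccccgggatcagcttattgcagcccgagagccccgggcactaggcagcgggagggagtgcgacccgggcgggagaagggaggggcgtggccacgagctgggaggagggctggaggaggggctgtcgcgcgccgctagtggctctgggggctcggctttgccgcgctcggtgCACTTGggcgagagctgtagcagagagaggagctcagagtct
Dnmt3b: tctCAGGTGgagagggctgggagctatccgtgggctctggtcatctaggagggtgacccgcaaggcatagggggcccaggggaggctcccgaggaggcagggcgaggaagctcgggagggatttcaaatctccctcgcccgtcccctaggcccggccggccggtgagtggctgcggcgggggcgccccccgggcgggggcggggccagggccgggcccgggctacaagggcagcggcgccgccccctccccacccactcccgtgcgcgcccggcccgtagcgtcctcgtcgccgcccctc
Sohlh1: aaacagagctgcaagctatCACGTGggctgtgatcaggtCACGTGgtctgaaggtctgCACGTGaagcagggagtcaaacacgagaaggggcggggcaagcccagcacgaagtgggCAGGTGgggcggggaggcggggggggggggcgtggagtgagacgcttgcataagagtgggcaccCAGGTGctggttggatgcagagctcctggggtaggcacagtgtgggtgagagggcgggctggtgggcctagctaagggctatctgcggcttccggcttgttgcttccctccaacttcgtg
Esx1: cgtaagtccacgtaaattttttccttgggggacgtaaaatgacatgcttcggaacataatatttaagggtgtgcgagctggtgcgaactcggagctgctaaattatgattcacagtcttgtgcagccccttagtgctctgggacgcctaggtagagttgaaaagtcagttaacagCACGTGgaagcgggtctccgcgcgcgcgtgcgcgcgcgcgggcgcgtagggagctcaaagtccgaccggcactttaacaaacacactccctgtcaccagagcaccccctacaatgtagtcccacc
*Kit*, *Dnmt3b* and *Esx1* each had 1 match, whereas *Sohlh1* had 5. The motif was present in 72.3% of the 32851 windows of this length, so its presence separated these genes from few others. A match is a run of letters, not a shown binding site.

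*Meioc*, the targeted gene, was read at 113, 108, 91.5 and 82.5 CPM in the *Kit*/*Dnmt3b* cells. Both null libraries lay below both wild-type libraries, but transcript was still counted in them. The sources used here do not give the part of the gene that the allele removes, and 3′ tags can lie outside it, so this level does not check the labels. The summed members held 1919703 to 5816181 UMIs per library. Libraries held 158291903 to 190455307 UMIs, and the members 77, 213, 91 and 143 cells. Members had median depths of 20074 to 25276 UMIs, above the 13028 to 16684 of all germ cells. Pairs of libraries shared 12 to 16 barcodes among those kept, and 0 among the members.

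The members were set beside 3 other gates of the same libraries. *Gfra1*/*Ret* cells (753) had at least 2 UMIs of *Gfra1* with *Ret* and at most 1 each of *Kit*, *Dnmt3b* and *Dmrtb1*, with low *Stra8*. *Stra8*-high cells (1098) had *Kit*, at least 5 *Stra8* UMIs per 10000, and at most 1 UMI each of *Meioc*, *Dmrtb1* and *Gfra1* with *Ret*. *Dmrtb1* cells (3383) had *Kit*, at least 2 *Dmrtb1* UMIs, low *Stra8* and low *Gfra1* with *Ret*. Their median depths were 21718 to 26338, 26699 to 35716 and 22893 to 25124 UMIs, so that the *Stra8*-high cells were deeper than the members in every library.

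*Kit*, the receptor, was at 202, 207, 179.7 and 199 CPM in the members, and *Dnmt3b* at 135, 131, 139 and 127 CPM. Neither gene was at its highest there: *Stra8*-high cells, chosen without regard to *Dnmt3b*, had 268 to 287 CPM of *Kit* and 139 to 146 CPM of *Dnmt3b*. *Dmrtb1* cells, also chosen without regard to *Dnmt3b*, had 67.4 to 81.5 CPM, and *Gfra1*/*Ret* cells, held at 1 UMI or fewer, had 14.5 to 18.1 CPM. *Stra8* was not absent from the members, at 199, 224, 228 and 215 CPM, against 970.2 to 1089 CPM in *Stra8*-high cells and 108 to 181 CPM in *Dmrtb1* cells. *Dmrtb1* was at 22.9 to 24.9 CPM, with 1 UMI in 323 members and 0 in 201.

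The markers *Sohlh1* and *Sohlh2*, which the rule did not use, differed from the *Gfra1*/*Ret* cells by less than 2-fold. *Sohlh1* was at 129.7, 123, 108 and 109.7 CPM in the members and 154, 123, 148 and 147 CPM in *Gfra1*/*Ret* cells, with members lower in 3 of 4 libraries and at the same level in wild-type replicate 2 (members over *Gfra1*/*Ret* cells, log2 fold change -0.40, SE 0.07, adjusted p = 1.09e-04 by edgeR's quasi-likelihood test, below the 2-fold limit used for a call). *Sohlh2* was at 42.2, 39.7, 29.9 and 36.5 CPM against 28.7, 26.5, 29.5 and 22.5 CPM, higher in the members of every library (log2 fold change 0.36, SE 0.12, adjusted p = 0.0118), again below that limit. Both were highest in *Stra8*-high cells, at 211 to 243 CPM of *Sohlh1* and 64.9 to 79.8 CPM of *Sohlh2*, with log2 fold changes in the members of -0.98 and -0.94. In the *Dmrtb1* cells they were at 101 to 109.5 and 31.5 to 35.8 CPM.

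**Figure D1:**
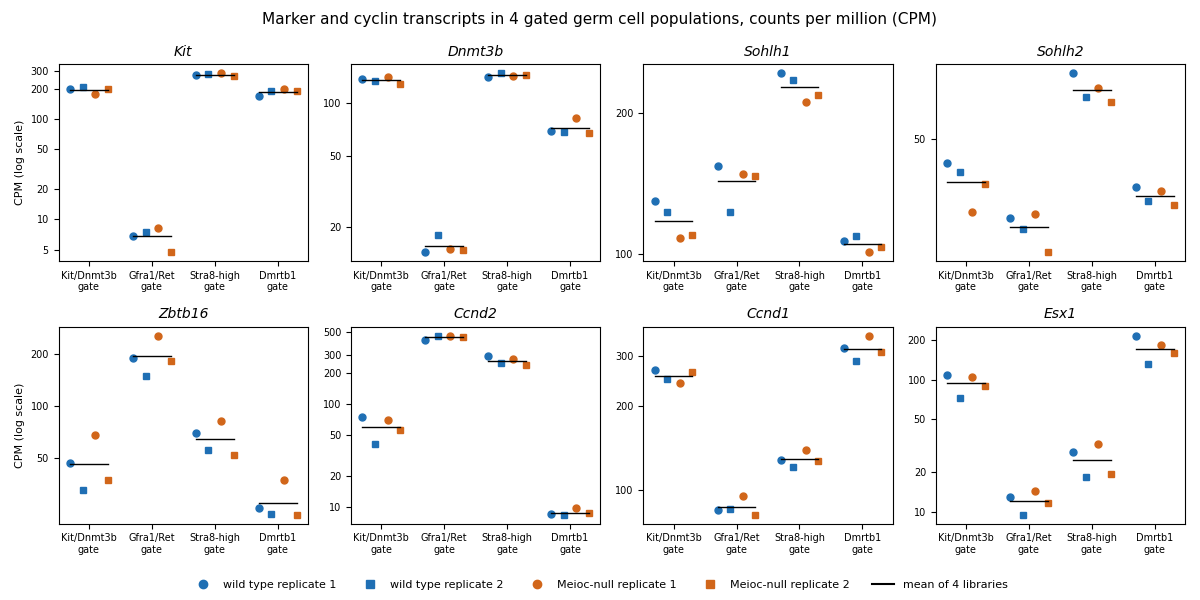
Levels of *Kit*, *Dnmt3b*, *Sohlh1*, *Sohlh2*, *Zbtb16*, *Ccnd2*, *Ccnd1* and *Esx1* (CPM of summed cells, log axis) in the *Kit*/*Dnmt3b* cells and the 3 other gates, with 1 point for each of 4 libraries. *Zbtb16* and *Ccnd2* were at 32.3 to 68.0 and 40.6 to 74.5 CPM in the *Kit*/*Dnmt3b* cells and at 148 to 254 and 418 to 460.0 CPM in *Gfra1*/*Ret* cells, whereas *Esx1* was at 72.0 to 108 CPM in the former and 9.47 to 14.5 CPM in the latter.

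At the edges of the gate, the 217 members with 2 *Dnmt3b* UMIs had 149 CPM of *Meioc* and 110.0 CPM of *Sohlh1*, and the 412 cells with 1 UMI just outside had 226 and 104 CPM. For *Dmrtb1*, the 323 members with 1 UMI and the 346 cells with 2 UMIs outside had 106 and 107 CPM of *Sohlh1*. The 75 members at 4 to 5 *Stra8* UMIs per 10000 had 162 CPM of *Ccnd2*, and the 72 cells at 5 to 6 had 144 CPM. For *Kit*, 101 members with 2 UMIs and 110 cells with 1 UMI had 120.0 and 177 CPM of *Sohlh1*. The 28 members with 1 UMI of *Gfra1* or *Ret* had 302 CPM of *Ccnd2*, near the 229 CPM of the 9 cells with 2. *Sohlh1* was at 163 and 143 CPM on the inner and outer sides of the *Stra8* limit and at 181 and 282 CPM on those of the *Gfra1* with *Ret* limit, the widest gap of the 5 limits.

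The members were not uniform. *Ccnd2*, a D-type cyclin of early spermatogonia, was carried by few of them: 33 cells (5, 12, 8 and 8 by library) had 4 or more *Ccnd2* UMIs and held 83.9% of the *Ccnd2* UMIs of all members, while 398 had 0. After each cell was thinned to 5000 UMIs, 9.92% of members had a *Ccnd2* UMI, against 78.3% of *Gfra1*/*Ret*, 45.3% of *Stra8*-high and 2.93% of *Dmrtb1* cells. Before thinning the shares were 24.0, 93.6, 73.5 and 12.4%, in the same order. The rule's limit of 2 *Kit* UMIs stands for a lower CPM in a deeper cell, so the gate may set part of the *Kit* difference given next. The 33 cells, which were deeper (median 42629 UMIs against 21685), had 79.7 CPM of *Kit* against 220.3 in the cells with 0. By library, their level of *Zbtb16* (PLZF, a repressor of undifferentiated spermatogonia) was 188, 36.0, 245 and 110.0 CPM against 25.8, 29.8, 40.2 and 28.1 CPM in the cells with 0, so that wild-type replicate 2, which gave 12 of the 33 cells, showed little difference. *Upp1* was at 86.6, 21.9, 135 and 70.2 CPM against 1.56, 1.61, 1.55 and 2.06 CPM, higher in every library and least so in wild-type replicate 2. *Ccnd1*, the other abundant D-type cyclin, ran the opposite way, at 63.0 and 288 CPM.

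A second spread ran along *Meioc*, with more *Sohlh1* at its lower end and more *Esx1* and *Sycp1* at its upper end in every library. *Meioc* had 0 UMIs in 196 members, up to 1 per 10000 UMIs in 159 and more in 169. *Lin28a* (an RNA-binding protein of undifferentiated and early differentiating cells) was at 47.0, 31.7, 35.7 and 37.0 CPM by library in the first set and 10.5, 5.42, 34.4 and 1.09 CPM in the last, lower in 3 libraries and nearly level in *Meioc*-null replicate 1. Pooled over libraries, *Sohlh1* went from 145 through 108 to 93.9 CPM. *Esx1* was at 45.9, 61.3 and 169 CPM, and *Sycp1*, a synaptonemal complex gene, at 391, 462 and 1046 CPM. *Dnmt3b* and *Dnmt1* changed less along it, at 146 to 117 and 306 to 311 CPM from the lowest to the highest set. These splits were made after the levels were seen and were not tested, so they are descriptions. *Meioc* is also the targeted gene, and the highest set held 35.1, 36.6, 26.4 and 28.0% of the members, fewer in both null libraries.

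**Figure D2:**
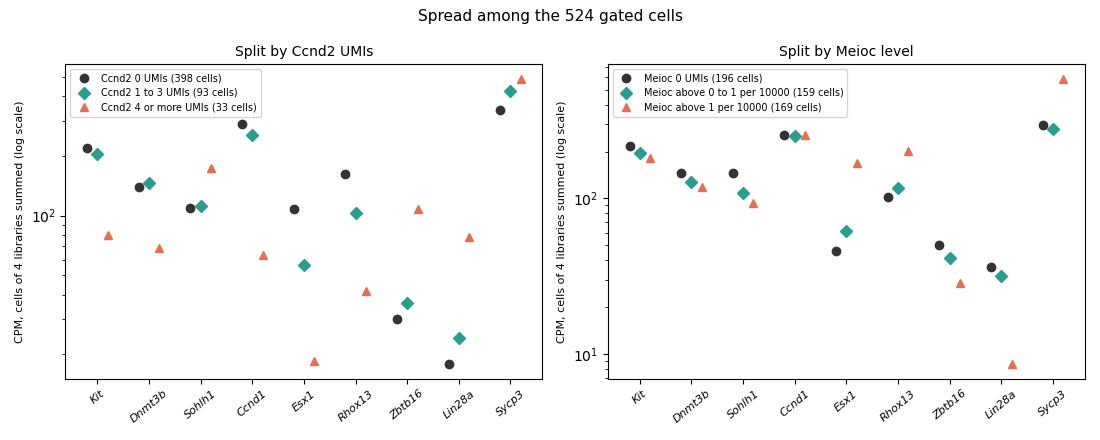
Levels (pooled CPM, log axis) of selected genes in the 524 *Kit*/*Dnmt3b* cells after a split by *Ccnd2* UMIs (398, 93 and 33 cells) and by *Meioc* level (196, 159 and 169 cells). Cells with 4 or more *Ccnd2* UMIs had less *Ccnd1* than cells with 0 in every library, and cells with more than 1 *Meioc* UMI per 10000 had more *Esx1* and *Sycp3* than cells with 0 in every library, whereas the pooled differences in *Zbtb16* and *Lin28a* were nearly absent from wild-type replicate 2 and *Meioc*-null replicate 1, respectively.

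Counted on all UMIs, the share of germ cells that were *Kit*/*Dnmt3b* cells differed more between batches than between genotypes. They made up 1.58, 3.01, 1.53 and 2.52% of germ cells, with 95% exact (Clopper-Pearson) intervals of 1.25 to 1.97, 2.63 to 3.44, 1.23 to 1.87 and 2.12 to 2.96%, which cover counting error only. Both replicate 2 libraries were above both replicate 1 libraries. The mean was 2.30% ± 1.01 (SD, n = 2) in wild type and 2.02% ± 0.699 (SD, n = 2) in *Meioc*-null, a difference of -0.275 percentage points (two-sided exact permutation test, p = 0.667; 2 against 2 cannot go below 0.3333). Within batch 1 the difference was -0.0518 points and within batch 2 -0.499 points. The rule counts UMIs without regard to depth, and when it was applied to cells thinned to 5000 UMIs, with shallower cells (672 to 837 per library) left out, it found 14, 21, 18 and 18 cells, or 0.317, 0.324, 0.330 and 0.349%. Both *Meioc*-null libraries were then above both wild-type libraries, a difference of 0.0187 points. The direction also turned without wild-type replicate 2 (0.442) and without *Meioc*-null replicate 1 (0.219).

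**Figure D3:**
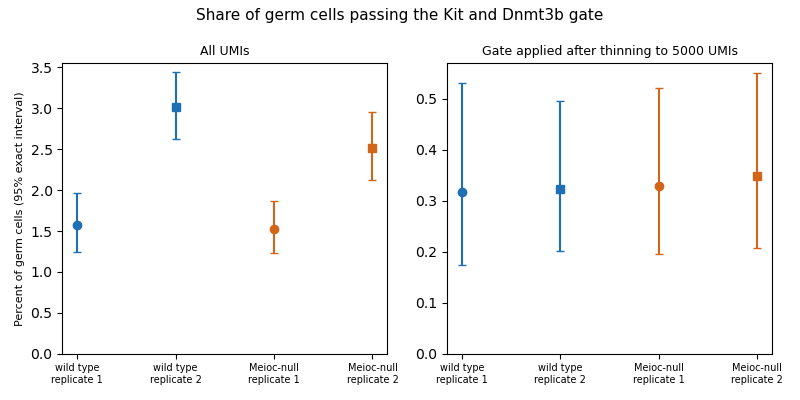
Percent of germ cells that were *Kit*/*Dnmt3b* cells in each of 4 libraries, with 95% exact intervals, from all UMIs and after thinning each cell to 5000 UMIs. From all UMIs the replicate 2 libraries (3.01 and 2.52%) were above the replicate 1 libraries of both genotypes, and after thinning the intervals of all 4 overlapped.

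Against the *Gfra1*/*Ret* cells, *Kit*/*Dnmt3b* cells were lower in *Zbtb16*, *Lin28a* and *Sall4* of the undifferentiated list. They were higher in *Rhox13*, *Crabp1*, *Ccnd1*, *Ccne2* and *Meioc*. Of 8622 genes tested, 1510 (17.5%) differed by more than 2-fold at an adjusted p below 0.05 (edgeR's quasi-likelihood test on UMIs summed per library and gate, library as a block), 545 (6.32%) higher and 965 (11.2%) lower in the members. The gates were set by UMIs of the rule genes in the same cells, so these counts describe how far the gates lie apart. A gene was tested when 25% of the cells of either gate had a UMI. Of 914 genes that reached this only in *Gfra1*/*Ret* cells 627 were called lower in the members, of 698 that reached it only in the members 296 were called higher, and of 7010 that reached it in both 248 were called higher and 338 (4.82%) lower. The direction of a gene that passed in 1 gate was thus largely set by the filter. Sertoli genes summed to 145 to 446 CPM in the members and 76.4 to 117 CPM in *Gfra1*/*Ret* cells, and *Aard* of that list was called (1.72). Their part in the other differences was not tested.

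Of 20 undifferentiated genes that the rule did not use, 15 were tested and 13 called lower in the *Kit*/*Dnmt3b* cells, but 9 of the 13 passed the filter only through *Gfra1*/*Ret* cells, the gate where they are high: *Nanos3*, *Ddit4*, *Upp1*, *Bcl6b*, *Lhx1*, *Tcl1*, *Id4*, *Etv5* and *Glis3*. Of the 6 tested in both gates, 4 were lower (*Zbtb16*, *Lin28a*, *Sall4* and *Foxo1*), and the values of the 9 are given as a description. *Etv5*, an ETS factor induced by GDNF signalling, was at 5.21, 1.89, 1.96 and 1.28 CPM in the members and 68.6, 72.2, 65.7 and 63.8 CPM in *Gfra1*/*Ret* cells (log2 fold change -5.05, SE 0.19). *Id4*, an inhibitor of helix-loop-helix factors that marks stem cells, was at 6.77, 11.7, 5.38 and 5.40 against 82.6, 96.0, 64.0 and 84.7 CPM (log2 fold change -3.55, SE 0.14). *Zbtb16* was at 46.4, 32.3, 68.0 and 37.0 against 189, 148, 254 and 180.4 CPM (log2 fold change -2.23, SE 0.08, adjusted p = 1.17e-14). In none of these 3 genes did the gates overlap. *Lhx1*, *Bcl6b*, *Tcl1* and *Glis3* fell as far, with log2 fold changes of -6.45, -4.64, -6.58 and -4.78. The smallest called falls were in *Foxo1* (-1.16), *Sall4* (-1.39), *Ddit4* (-1.53) and *Lin28a* (-1.61), with *Nanos3* (-2.88) and *Upp1* (-2.28) between. *Taf4b* (0.07) and *Sox3* (-0.40) were tested and not called.

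The largest falls outside that list were in *Nefm*, a neurofilament subunit (0.516 to 1.96 CPM against 143 to 174, log2 fold change -7.36), and *Fst*, the activin antagonist follistatin (2.57 to 6.36 against 85.9 to 100.4, -4.60). *Dusp6*, a feedback phosphatase of ERK signalling, was at 2.31 to 6.36 against 48.2 to 62.7 CPM (-4.06), and *Ptpn13*, *Pygl*, *Pdzd2* and *Smoc2* fell by log2 fold changes between -4.12 and -3.81. *Nefm*, *Fst* and *Dusp6*, at no more than 6.36 CPM in the members, could pass the detection filter only through *Gfra1*/*Ret* cells. Their falls are therefore given as a description. The largest rises were in the T-box factor *Tbx1* and the elongation factor gene *Tcea3*. *Tbx1* was at 63.6, 62.9, 55.8 and 69.6 CPM against 3.08, 1.68, 2.76 and 1.63 (log2 fold change 4.68, SE 0.17). *Tcea3* was at 66.2, 46.6, 59.2 and 64.2 CPM against 1.66, 2.32, 2.55 and 3.26 (log2 fold change 4.42, SE 0.17). Both were nearly absent from *Gfra1*/*Ret* cells and even across the libraries of the members. *Runx3*, a RUNT-domain factor, was at 49.0 to 63.5 CPM against 3.32 to 5.53 (3.45), and the transcriptional coactivator *Cited1* at 207 to 238 against 18.1 to 21.1 (3.39). *Crybg3*, *Pcsk1n*, *Gnai1*, *Baz1a* and *Serpine2* followed, at 3.18, 3.10, 2.83, 2.38 and 2.31. At their levels in *Gfra1*/*Ret* cells, *Tbx1*, *Tcea3* and *Runx3* could pass the detection filter only through the members. The filter thus largely set their direction, and their values are given as a description. The gates in which the other genes of this paragraph passed are not given here. *Cited1* and *Pcsk1n* were more abundant still in barcodes gated as Sertoli cells by *Sox9* and *Cldn11* (623 to 885 and 628 to 1299.8 CPM), and both stayed called when cells rich in Sertoli and myoid transcripts were left out.

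Of the 7 differentiating-list genes outside the rule, 5 passed the filter in both gates. Of these 1 rose and 0 fell, beside 248 higher and 338 lower of 7010 over all genes. It was *Rhox13*, an X-linked homeobox gene, at 158, 118, 140.5 and 148 against 38.2, 32.6, 22.1 and 34.3 CPM (log2 fold change 2.02, SE 0.10, adjusted p = 7.27e-11 by edgeR's quasi-likelihood test). *Esx1*, another X-linked homeobox gene, was at 108, 72.0, 105 and 89.4 CPM against 12.8, 9.47, 14.5 and 11.6 CPM (log2 fold change 2.82, SE 0.10). *Ccnd2* was at 74.5, 40.6, 70.5 and 56.0 against 418, 460.0, 454 and 449 CPM (log2 fold change -3.09, SE 0.20), and the members of every library lay far below. *Dmrt1* and *Uchl1*, with *Sohlh1* and *Sohlh2*, were tested and not called, the first pair at log2 fold changes of 0.50 and 0.07. *Esx1* passed the filter only in the members and *Ccnd2* only in *Gfra1*/*Ret* cells, so the values of both are given as a description.

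The cyclins changed in opposite directions. *Ccnd1* was at 267, 248, 240.4 and 263 CPM against 85.0, 85.7, 95.4 and 81.9 CPM (log2 fold change 1.43, SE 0.07, adjusted p = 5.59e-13), and the E-type cyclins *Ccne1* and *Ccne2*, which act at entry into S phase, rose by log2 1.21 and 1.80. *Ccnd3* fell with *Ccnd2*, at -1.11, so that 3 of 8 tested cyclins rose and 2 fell, beside 6.32% higher and 11.2% lower over all genes. Of 6 cyclins that passed the filter in both gates 2 rose and 1 fell, beside 248 higher and 338 lower of 7010 over all genes. Genes of S phase took 0.647 to 0.704% of the UMIs of members and 0.429 to 0.522% in *Gfra1*/*Ret* cells, and those of G2/M phase 1.14 to 1.23% and 0.707 to 0.751%. The ranges did not overlap. In *Dmrtb1* cells the S-phase and G2/M shares were 0.704 to 0.744% and 1.40 to 1.55%, and in *Stra8*-high cells 0.598 to 0.669% and 1.02 to 1.05%. Gene by gene, 5 of 43 S-phase genes rose (*Gins2*, *Ccne2*, *Rrm2*, *Cdc6* and *E2f8*) and 3 fell (*Atad2*, *Pola1* and *Chaf1b*), and 4 of 52 G2/M genes rose (*Tpx2*, *Mki67*, *Ckap2l* and *Tubb4b*) and 3 fell (*Anp32e*, *G2e3* and *Gas2l3*), with medians of 0.48 and 0.48. The 8 of 43 and 7 of 52 called lie near the 17.5% of all genes. Of these cell cycle genes *Ccne1* and *E2f8* passed the filter only in the members and *Ccnd2*, *Pola1*, *Chaf1b* and *Gas2l3* only in *Gfra1*/*Ret* cells. The changes of these genes are given as a description.

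In the retinoic acid list, 2 of 8 tested genes rose, beside 6.32% of all genes. *Crabp1*, a cytoplasmic retinoic acid-binding protein, was at 483, 486, 397 and 473 CPM against 101, 91.0, 106 and 92.6 CPM (log2 fold change 2.11, SE 0.07, adjusted p = 9.25e-13). All 4 libraries of the members lay above all 4 of the *Gfra1*/*Ret* cells, and Sertoli-gated barcodes had 5.90 to 15.2 CPM. The receptors *Rara* and *Rarg* were at 21.3 to 26.0 and 13.0 to 21.0 CPM in the members, and *Rarb* and the degrading enzyme *Cyp26a1* at 0.257 to 2.08 and 0 to 5.73 CPM, too low to be tested.

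KIT itself belonged to the rule, and of 22 tested genes downstream of it 0 rose and 6 fell, beside 11.2% lower over all genes. They were *Pik3ca* and *Pik3r1*, the catalytic and regulatory subunits of phosphoinositide 3-kinase (-1.66 and -1.31), the RAS exchange factor *Sos1* (-1.20), the ERK gene *Mapk3* (-1.17), and *Foxo1* and *Foxo3* (-1.16 and -1.13), forkhead factors that AKT inactivates. Of 18 genes of this list that passed the filter in both gates 3 fell, beside 338 of 7010 over all genes. Of 4 that passed only in *Gfra1*/*Ret* cells 3 fell (*Pik3ca*, *Pik3r1* and *Sos1*), beside 627 of 914. The filter largely set the direction of these 3, and their values are given as a description. *Foxo1* was also on the undifferentiated list. The list's median was -0.16, and *Grb2* and *Rps6kb1* were among the 16 not called.

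Of 12 genes tested for DNA methylation other than *Dnmt3b*, *Tet3* rose and *Mbd2* fell, a share near the 17.5% of all genes. The maintenance methyltransferase *Dnmt1* was at 281, 287, 342 and 321 CPM in the members and 227, 205, 293 and 191 CPM in *Gfra1*/*Ret* cells (log2 fold change 0.32, SE 0.07, adjusted p = 0.00127), short of the 2-fold limit. *Dnmt3a*, the other de novo enzyme, was at 74.0, 75.5, 91.5 and 98.9 against 71.4, 64.8, 77.8 and 71.2 CPM, a difference of 0.13 on the log2 scale. Their cofactor *Dnmt3l* was at 0.172 to 1.47 CPM and the rodent enzyme *Dnmt3c* (listed as *Gm14490*) at 0 in all 4 libraries. *Tet3*, a methylcytosine dioxygenase, was at 78.1, 74.8, 110.1 and 77.6 against 34.2, 25.9, 39.7 and 34.3 CPM (log2 fold change 1.22, SE 0.09, adjusted p = 7.35e-10), whereas *Tet1* and *Tet2* were at 0.771 to 2.45 and 0.771 to 3.13 CPM. The methyl-CpG reader *Mbd2* was at 14.1, 25.8, 17.1 and 11.1 against 37.0, 62.3, 36.3 and 31.4 CPM (log2 fold change -1.44, SE 0.12, adjusted p = 2.99e-09). *Uhrf1*, which guides DNMT1, and the helicase *Hells* were at 136, 98.7, 154 and 115 and 782, 947, 769 and 899.7 CPM, and *Uhrf1* was higher in both replicate 1 libraries in either gate.

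**Figure D4:**
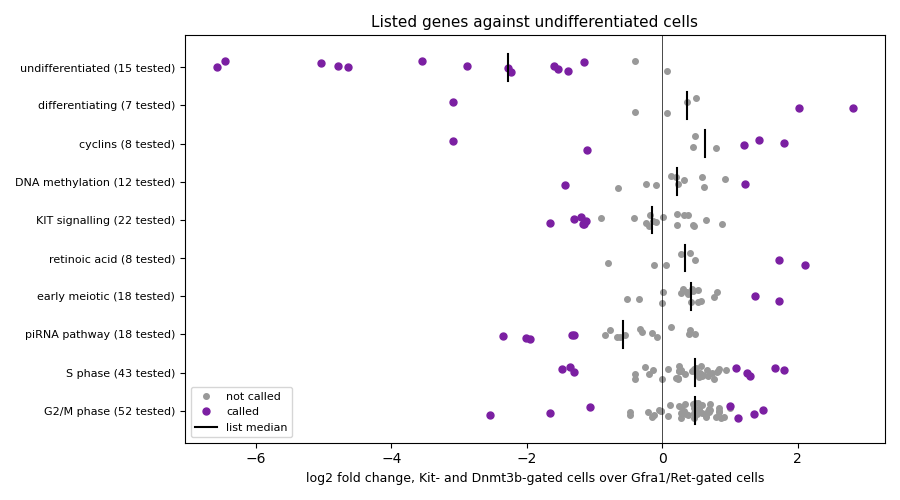
Log2 fold changes of tested genes of each list, *Kit*/*Dnmt3b* cells over *Gfra1*/*Ret* cells, 1 point per gene, with called genes in purple and a line at each list's median. Of the undifferentiated list 13 of 15 points are called and below 0, 9 of them genes that passed the detection filter only in *Gfra1*/*Ret* cells, and the 12 DNA methylation genes, which passed it in both gates, lie between -1.44 and 1.22.

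*Meioc* and its partners were already higher than in *Gfra1*/*Ret* cells. *Meioc* rose from 16.6, 26.3, 19.1 and 24.1 CPM (log2 fold change 2.04, SE 0.13, adjusted p = 2.67e-09), *Ythdc2* was at 92.2, 92.2, 89.1 and 96.9 against 26.6, 39.6, 40.4 and 32.8 CPM (log2 fold change 1.28, SE 0.10, adjusted p = 1.46e-09), and *Rbm46*, an RNA-binding partner, at 243, 265, 241 and 268 against 97.5, 106, 111 and 104 CPM (log2 fold change 1.16, SE 0.06, adjusted p = 3.19e-12). The decay factors *Xrn1*, *Upf1* and *Cnot1* were not called. Of 18 early meiotic genes tested, 14 passed the filter in both gates and 0 of these were called, beside 248 higher and 338 lower of 7010 over all genes. Of 4 that passed only in the members 2 were called higher, beside 296 of 698 over all genes, and are given as a description. *Prdm9*, the histone methyltransferase that places recombination hotspots, was at 19.8, 16.7, 28.4 and 18.5 against 3.32, 5.05, 6.59 and 7.25 CPM (log2 fold change 1.72, SE 0.20). The other was *Mei1*, needed for meiotic breaks (1.37). *Sycp3*, *Sycp1*, *Smc1b* and *Tex15* were not called, and the list's median was 0.43. In the repressive PRC1.6 complex *Ring1* and *Cbx1* rose and *Pcgf6* fell, of 15 tested, near the 17.5% called over all genes. *Ring1* passed the filter only in the members and *Pcgf6* only in *Gfra1*/*Ret* cells. *Cbx1* was the 1 called gene of 8 repressors named in the study, a list chosen with these samples in view. Of 18 piRNA-pathway genes 5 fell (*Piwil4*, *Tdrd5*, *Asz1*, *Gtsf1* and *Morc1*) and 0 rose, beside 11.2% lower over all genes, with a median of -0.59. *Piwil4*, the nuclear PIWI protein of fetal germ cells, was at 2.75 to 6.85 CPM against 17.6 to 20.0 and passed the filter only in *Gfra1*/*Ret* cells. Of 16 piRNA-pathway genes that passed in both gates 4 fell, beside 338 of 7010 over all genes. Of 10 genes induced by dissociation 6 were lower in the members, beside 11.2% of all genes. Of 5 that passed in both gates 3 fell (*Fos*, *Jun* and *Egr1*), beside 338 of 7010 over all genes. Of 5 that passed only in *Gfra1*/*Ret* cells 3 fell (*Hspa1a*, *Dusp1* and *Zfp36*), beside 627 of 914, and these 3 are given as a description. The part of these dissociation genes in the other differences was not tested.

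Against *Stra8*-high cells fewer genes were called, and *Rhox13* was higher in the members, as it was against *Gfra1*/*Ret* cells. Genes tested numbered 8681, of which 386 (4.45%) were called, 129 (1.49%) higher and 257 (2.96%) lower in the members. Sertoli genes summed to 58.1 to 137 CPM in *Stra8*-high cells and myoid genes to 70.8 to 125 CPM against 209 to 403 in the members, and *Acta2* was called (1.30). The part of these transcripts in the other differences was not tested. *Esx1* rose most, from 28.1, 18.4, 32.8 and 19.4 to 108, 72.0, 105 and 89.4 CPM (log2 fold change 1.92, SE 0.09, adjusted p = 3.73e-11), and *Rhox13* was at 118 to 158 CPM in the members and 57.7 to 70.2 CPM in *Stra8*-high cells (log2 fold change 1.13). The testis histone *Hist1h2aa*, the protease gene *Prss50*, *Rpl39*, *Ppt1*, *H1fx* and *Tcea3* rose by log2 fold changes of 1.51 to 1.74, and *Gstm2*, *S100a10* and *Dpep3* by 1.48 to 1.49. *Gstm2*, *S100a10* and *Ppt1* were at 1334 to 1499, 701 to 867 and 449 to 713 CPM in Sertoli-gated barcodes, and *Gstm2* and *S100a10* fell below the filter on detection when cells rich in Sertoli and myoid transcripts were left out.

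*Ccnd2* was again lower in the members, against 292, 250.4, 272 and 239 CPM in *Stra8*-high cells (log2 fold change -2.22, SE 0.13). It had a UMI in 24.0% of members and 73.5% of *Stra8*-high cells. It was thus tested only through the latter, and its value is a description. The histone *Hist1h2ae* (-2.26), the reproductive homeobox gene *Rhox10* (-1.87), and *Rgs10* and *Nfib* (-1.81 and -1.77) also fell. *Crabp1*, at 461 to 508 CPM in *Stra8*-high cells, was not called (-0.12). *Ube2r2* and *Ddah1* were other large falls, at -1.66 and -1.56, as was *Dlk1*, of the Leydig list, at -1.66, which was higher in the members than in *Dmrtb1* cells (1.05). Leydig genes summed to 63.1 to 81.9 CPM in *Stra8*-high cells and 26.2 to 31.6 CPM in the members, and their part in this difference was not tested. Of 7 undifferentiated genes 3 fell (*Sall4* -1.28, *Upp1* -1.17 and *Lin28a* -1.03, which lost its call without wild-type replicate 2). Of 22 KIT signalling genes 1 fell (*Sos1*, -1.38), and of 19 early meiotic genes 1 rose (*Prdm9*, 1.45), both shares near the 4.45% of all genes. *Upp1* and *Sos1* did not reach the detection limit in the members and were thus tested only through *Stra8*-high cells. The filter largely set their direction, and their values, with the counts that include them, are given as a description. Whether *Prdm9* reached the limit in *Stra8*-high cells is not given here, so the filter may have set its direction too. None of 12 DNA methylation genes was called, with a median of -0.02 beside 0.00 over all genes. *Stra8*-high cells were chosen for at most 1 *Meioc* UMI, and with members held to 1 *Meioc* UMI per 10000 or fewer, a limit chosen after seeing the data, 230 genes were called. *Rhox13* (0.81), *Dpep3* (0.81), *Prss50* (0.47), *Upp1* (-0.88) and *Lin28a* (-0.67) then fell short of the 2-fold limit and *Hist1h2aa* (1.20, adjusted p = 0.0649) of the threshold for p.

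Fewest genes were called against the *Dmrtb1* cells. Genes tested numbered 7970, of which 37 (0.464%) were called, 36 (0.452%) higher in the members and 1 (0.0125%), the histone *Hist1h2ba*, lower (log2 fold change -1.11, SE 0.07, adjusted p = 4.21e-10). The median size of a log2 difference was 0.14, against 0.26 for *Stra8*-high and 0.43 for *Gfra1*/*Ret* cells. The gates have different numbers of cells and share their member sums, so these 3 values are set side by side without a test. The *Dmrtb1* gate, unlike the *Stra8*-high gate, had no limit on *Meioc*, and with members held to 1 *Meioc* UMI per 10000 or fewer 231 genes were called against *Dmrtb1* cells and 230 against *Stra8*-high cells, so that the order of these counts was lost.

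Of 6 undifferentiated genes tested, 1 rose, beside 0.452% of all genes. It was *Lin28a*, which was at 33.9, 21.0, 40.1 and 24.2 CPM in the members and 10.9, 11.2, 9.09 and 7.99 CPM in *Dmrtb1* cells (log2 fold change 1.54, SE 0.18). At this level in *Dmrtb1* cells, *Lin28a* may have reached the detection limit for testing only in the members. The gates in which it passed are not given here. That limit may thus have set its direction, and the call, with the 1 of 6, is given as a description. *Trim71*, an RNA-binding ubiquitin ligase on none of the lists, was at 78.7, 71.0, 90.1 and 60.1 against 30.3, 34.4, 34.2 and 26.3 CPM (log2 fold change 1.27, SE 0.08, adjusted p = 9.87e-11). In both genes the members of every library lay above every *Dmrtb1* sum. *Ccnd2*, at 8.52, 8.44, 9.78 and 8.71 CPM in *Dmrtb1* cells, did not reach the detection limit for testing in either gate. *Esx1*, *Rhox13* and *Meioc* had the opposite sign, with log2 fold changes of -0.82, -0.42 and -0.87, all short of the 2-fold limit. Among cyclins, DNA methylation, KIT signalling, piRNA, S-phase, G2/M and early meiotic genes 0 were called, with list medians between -0.28 and 0.17.

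Transcripts of Sertoli cells, which surround the germ cells in the tubule, moved with this comparison as with the others. The 6 Sertoli genes summed to 374, 351, 446 and 145 CPM in the members and 119 to 206 CPM in *Dmrtb1* cells, and none was at 0 in all libraries. *Aard* made up most of the sum in the members (231, 208, 252 and 82.8 CPM), while *Sox9* and *Wt1* were at 10.8 to 35.7 and 9.25 to 26.4 CPM. The 5 peritubular myoid genes summed to 209 to 403 CPM against 111 to 157, and Leydig, endothelial and macrophage genes to at most 31.6, 58.3 and 3.08 CPM, with the macrophage genes *Adgre1* and *Itgam* at 0. Of the other genes that rose most, *Sdc4*, *Tubb5*, *Ldhb*, *Tmsb4x*, *Wfdc10*, *Gatm*, *Map4k4* and *Dstn* were at 592 to 716, 888 to 1086, 1923 to 2532, 5272 to 6518, 1550.2 to 1965, 1313 to 1508, 276 to 366 and 647 to 869.8 CPM in Sertoli-gated barcodes, whereas *Lin28a* and *Trim71* were at 0 to 1.90 and 0.491 to 2.53 CPM.

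When cells with 10 or more UMIs over the Sertoli and myoid lists were left out, which took 27 members (4, 10, 7 and 6) and was chosen after seeing the data, 26 genes were called, 22 of them shared with the 37. *Lin28a*, *Trim71*, *Sdc4*, *Tubb5* and *Map4k4* stayed called, at 1.62, 1.35, 2.37, 1.38 and 1.42 on the log2 scale. *Ldhb*, *Tmsb4x*, *Wfdc10*, *Gatm* and *Dstn* were lost, and *Tmsb4x* turned to -0.16. Without *Meioc*-null replicate 2, which had the lowest Sertoli sum, 65 genes were called, and without *Meioc*-null replicate 1, 26. *Tubb5* was not called without either wild-type replicate and *Sdc4* without wild-type replicate 1, whereas *Lin28a* and *Trim71* were called without any one library. For *Lin28a* the detection limit may have set the direction under these settings too.

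The number of genes that differed between genotypes in the *Kit*/*Dnmt3b* cells depended on whether the littermate pair entered the fit, with 3 called without it and 98 (1.24%), 87 of them higher in wild type, with it. Without the pair, of 7922 genes tested, 3 (0.0379%) were called, all higher in wild type, with 345 at an unadjusted p below 0.05 and 3 called by DESeq2. All 3 are known from later spermatocytes. *Tesmin*, a cysteine-rich protein of the testis, was at 24.5, 36.8, 5.38 and 4.63 CPM (log2 fold change 2.71, SE 0.31, adjusted p = 0.00306, wild type over *Meioc*-null, edgeR's quasi-likelihood test). *Piwil1* (MIWI), which binds pachytene piRNAs, was at 24.0, 37.5, 6.85 and 5.65 CPM (log2 fold change 2.41, SE 0.30, adjusted p = 0.00499). *Ybx2*, a binding protein of stored germ cell mRNAs, was at 40.6, 56.7, 21.5 and 17.0 CPM (log2 fold change 1.43, SE 0.23, adjusted p = 0.0416). In each gene both wild-type libraries lay above both null libraries. A gene was tested when at least 25% of the members of either genotype had a UMI, and *Tesmin* (25.9% of wild-type and 10.7% of null members) and *Piwil1* (27.2 and 13.7%) passed only through wild type, whereas *Ybx2* passed in both (48.6 and 35.9%). All 3 were also called without that filter, where 9 genes were. *Tesmin* lies at chr19:3388857-3407823, *Piwil1* at chr5:128702524-128755474 and *Ybx2* at chr11:69935796-69941605 (GENCODE vM21, GRCm38).

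These 3 genes were low in the members and differed in the same direction in *Dmrtb1* cells, where *Tesmin* was at 44.9, 45.0, 7.40 and 6.13, *Piwil1* at 71.1, 41.0, 6.52 and 5.63 and *Ybx2* at 84.1, 58.6, 23.1 and 19.4 CPM. The 8 pachytene genes, which include *Tesmin* and *Piwil1*, took 0.0343% ± 0.00630 (SD, n = 2) of the UMIs of wild-type and 0.0211% ± 0.000480 (SD, n = 2) of those of *Meioc*-null members (two-sided exact permutation test, p = 0.3333, the smallest possible). Over all germ cells of each library the same genes took 0.107, 0.0740, 0.0214 and 0.0220%, again higher in wild type. In Sertoli-gated barcodes *Tesmin*, *Piwil1* and *Ybx2* reached 1.31 to 12.6, 0.656 to 12.6 and 1.31 to 16.6 CPM. The part of free RNA or of mixed barcodes in these 3 calls was not tested. None of the 3 was called when the top doublet scores, the cells rich in somatic transcripts or the members above 1 *Meioc* UMI per 10000 were left out. *Tesmin* and *Piwil1* did not reach the detection limit for testing in the first case and *Tesmin* in the second, and all 3 were tested and missed the threshold in the last, at 1.41, 0.95 and 0.36 on the log2 scale. The last of these limits uses the targeted gene and keeps different cells by genotype. With at least 3 *Dnmt3b* UMIs *Tesmin* alone of the 3 was called, beside *Arid2*, *Tma7* and *Tmsb4x*, named after their values were seen, and *Ybx2* was lost under the Bonferroni adjustment. Under the 5% mitochondrial limit *Ybx2* alone of the 3 reached the detection limit and was called, and after thinning none of the 3 reached it. None of the 3 was called without wild-type replicate 2 or without either null replicate, and *Ybx2* alone without wild-type replicate 1, when *Tesmin* and *Piwil1* did not reach the detection limit. Each of these fits leaves 1 library in a genotype, which is assumed to vary like the pair in the other, so that the calls rest on the spread of 2 libraries. The 4 genes called without *Meioc*-null replicate 1 were *Aard*, *Clu*, *Cst12* and *Defb19*, named after their values were seen, and *Aard* belongs to the Sertoli list.

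**Figure D5:**
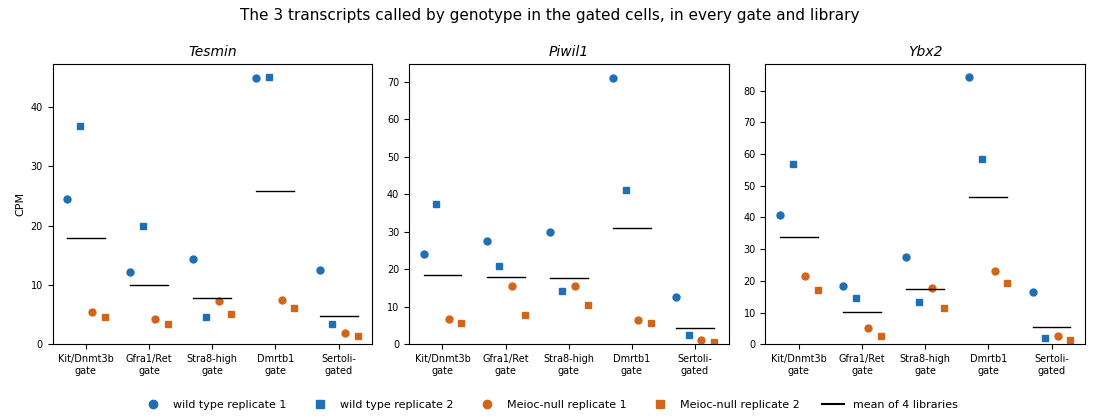
Levels (CPM) of *Tesmin*, *Piwil1* and *Ybx2* in each of 4 libraries for the *Kit*/*Dnmt3b* cells, the 3 other gates and Sertoli-gated barcodes. In the *Kit*/*Dnmt3b* and *Dmrtb1* cells both wild-type points lie above both *Meioc*-null points for every gene.

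With the littermate pair as a block, 98 genes (1.24%) were called in the members, 87 (1.1%) higher and 11 (0.139%) lower in wild type, including the 3. This fit estimates both pair and genotype from 4 libraries, which leaves little information on the spread between animals. Its adjusted p values (edgeR's quasi-likelihood test) lean on variance shared across genes and do not measure that spread. Of the 98, 14 reached the detection limit in wild type only, 3 in *Meioc*-null only and 81 in both. Early meiotic genes were the list with most calls, 7 of 20: *Sycp1*, *Sycp2* and *Sycp3* of the synaptonemal complex, *Hormad1* of the chromosome axis, *Tex101*, *Ly6k* and *Psma8*. *Hormad1* was at 77.6, 138, 48.0 and 53.7 CPM (log2 fold change 1.13, adjusted p = 4.10e-14) and *Sycp3* at 326, 492, 280.0 and 276 CPM (0.57, adjusted p = 7.52e-06). *Sycp3* and *Hormad1* were highest in wild-type replicate 2, and both wild-type libraries were above both null libraries. *Cox8c*, a testis form of a cytochrome oxidase subunit, had the lowest adjusted p (31.8, 106, 16.2 and 23.1 CPM, 1.86, adjusted p = 2.09e-21), followed outside the lists by *Gm11837*, *Ropn1l*, *Loxl2* and *Hspa2*. *Loxl2* was high in wild-type replicate 1 alone (176, 60.0, 56.3 and 39.1 CPM). *Hspa2*, a chaperone of spermatocytes for which all pups were heterozygous for *Hspa2*tm1Dix, was at 35.9, 71.7, 25.5 and 23.4 CPM. Among G2/M genes *Cks2* was higher in wild type (0.44, adjusted p = 0.00199).

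The genes lower in wild type under the block included *Dut*, which removes dUTP (186, 197, 247 and 298 CPM, -0.49, adjusted p = 6.98e-04), *Ptms*, *Secisbp2l*, *Exoc1*, *Gm17494*, *Prr11*, the chromatin remodeller *Atrx* (-0.40, adjusted p = 0.0171), *Ro60* and *Nek7*. *Acta2*, the smooth muscle actin of the myoid list, was at 106, 105, 124 and 234 CPM (-0.76, adjusted p = 6.13e-04), highest in *Meioc*-null replicate 2, and was no longer tested without cells rich in somatic transcripts.

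Genes that mark differentiation, DNA methylation and KIT signalling were not called by genotype, with or without the block. *Kit* and *Dnmt3b*, which the rule used, were at similar levels in all libraries (above). *Sohlh1* and *Sohlh2* had log2 fold changes of 0.23 and 0.30, wild type over null. Of 12 DNA methylation genes 0 were called, with a median of -0.18 beside -0.004 over all genes. *Dnmt1* was lower in both wild-type libraries than in both null libraries (281, 287, 342 and 321 CPM, log2 difference -0.20), and *Dnmt3a* likewise (74.0, 75.5, 91.5 and 98.9 CPM, -0.33), neither past the threshold. *Crabp1* was at 483, 486, 397 and 473 CPM (log2 difference 0.17), and that of *Meioc* itself was 0.37. S-phase genes took 0.659, 0.647, 0.704 and 0.675% of UMIs (two-sided exact permutation test, p = 0.3333, the smallest possible), and G2/M genes 1.19, 1.15, 1.14 and 1.23% (p = 1 by the same exact test).

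Whether genotype acted differently in the *Kit*/*Dnmt3b* cells than in *Dmrtb1* cells was tested by an interaction term. Of 8127 genes 0 were called by edgeR's quasi-likelihood test (lowest adjusted p 0.954, 271 at an unadjusted p below 0.05) and 0 by DESeq2. The count was 30 without wild-type replicate 2, 8 without wild-type replicate 1, 4 without *Meioc*-null replicate 2 and 0 without *Meioc*-null replicate 1, and with all libraries kept it was 38 without the detection filter and 21 with *Meioc* limited, so the count of 0 changed under each of these settings except the loss of *Meioc*-null replicate 1.

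The most abundant transcripts of the members, apart from mitochondrial genes, were ribosomal protein genes, which took 16.8 to 18.9% of UMIs, against 20.6 to 23.8% in *Gfra1*/*Ret* cells. *Stra8*-high cells, at 17.0 to 19.1%, and *Dmrtb1* cells, at 16.1 to 18.3%, were near the members. Counts are of 3′ ends, so a level does not scale with transcript length. *Rpl13* was at 5001 ± 268 CPM (mean ± SD, n = 4), with *Rpl32*, *Rps24*, *Rplp1*, *Rplp2* and *Rpl27a* at means of 3773 to 4622 CPM. *Ptma*, prothymosin alpha, was at 3669.6 ± 248 CPM. *Gm42418*, which overlaps ribosomal RNA repeats, was at 4989 ± 1232 CPM and is uncertain as a gene. Across cells thinned to 5000 UMIs, the genes whose counts varied most beyond their mean in all 4 libraries were *Malat1*, *Wdcp*, *Ctsl*, the histone genes *H3f3b*, *Hist1h1a* and *Hist1h2ap*, *Gm42418* and *Top2a*, with a variance of at least 2.58 to 6.99 times the mean. *Hist1h2ap*, a replication-dependent histone, had a mean of 2.60, 11.9, 2.96 and 10.2 UMIs per thinned member, higher in both replicate 2 libraries whatever the genotype. X-linked genes took 1.95 to 2.12% of the members' UMIs.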

How the data were processed

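Testis cells of 4 P15 pups were profiled with 10x Genomics 3′ v3.1 libraries. The authors counted UMIs with Cell Ranger 4.0.0 against mm10/GRCm38 and deposited raw UMI counts per gene and barcode, unnormalised and cell-called, which were used as deposited. Groups came from the sample labels, and batch followed the replicate number. The deposited protocol describes each batch as a littermate pair. Deviations of same-numbered libraries from their genotype means correlated across 7922 genes (r = 0.297, a description).

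Members were gated on raw UMIs (Python 3.11.15, scanpy 1.11.5), and doublets were left in, with the top Scrublet scores removed in an alternative (4, 18, 4 and 4 members among them). UMIs were summed per library and gate and tested in R 4.3.3 with edgeR 4.0.16 (TMM, robust quasi-likelihood, Benjamini-Hochberg) for genes detected in 25% of cells of either group. The SE given with a log2 fold change is its absolute value over the square root of the F statistic. It does not measure the spread between animals directly. A call needed an adjusted p below 0.05 and an absolute log2 fold change over 0.1 between genotypes, without a block, or over 1 between gates, with library as a block. Rule genes and mitochondrial genes stayed in the fits and in the p adjustment but were left out of the calls and of the counts of genes tested. *Meioc* was likewise left out against *Stra8*-high cells. DESeq2 1.42.0 and other settings were alternatives. Cells were never replicates. Scripts were tested on simulated data.

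Named were list genes that were called, the 10 largest changes each way (between gates, at 50 CPM or more in the higher gate and the same way in every library) or the 10 lowest adjusted p (by genotype), the 10 most abundant genes, and untested or uncalled examples. Members and lists were chosen with earlier results of these data known. A few genes that these rules would name are not reported here.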

Additional observations from a re-analysis of the deposited data

How the results depend on the processing

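Of 185 alternative values for the main results, 142 kept the direction (differences in share), a count within 1.5 times the one reported or a mean share within 1 SD between libraries. A kept count need not hold the same genes. The genotype calls with at least 3 *Dnmt3b* UMIs (4) and under the 5% mitochondrial limit (2) each shared 1 gene with the 3 reported. With 2 libraries per genotype and 77 to 213 members each, genotype calls rest on few cells and on genes near the detection filter, and limits marked as chosen after seeing the data are those on somatic transcripts and on *Meioc*. The difference in share turned to 0.197 points under a 5% mitochondrial limit (6, 32, 7 and 16 members), 0.0187 after thinning and 0.000327 with *Meioc* at most 1 per 10000, and ranged from -0.993 to 0.442 points when each library was left out. Genotype calls numbered 0 with doublets removed, after thinning, with *Meioc* limited and without somatic-rich cells, 9 without the detection filter, 98 with the replicate block, and 1 to 42 with a library left out (42 without wild-type replicate 1, 7 without wild-type replicate 2, 4 and 1 without *Meioc*-null replicates 1 and 2). Without the detection filter 3873 genes were called against *Gfra1*/*Ret*, 1507 against *Stra8*-high and 835 against *Dmrtb1* cells, of which 16 were among the 37. With *Meioc* limited, 230 and 231 were called against *Stra8*-high and *Dmrtb1* cells, the latter including all 37. Leaving out a library gave 26 to 65 calls against *Dmrtb1* cells. The interaction gave 21 calls with *Meioc* limited, 38 without the filter, 1 without somatic-rich cells and 0 to 30 with a library left out (30 without wild-type replicate 2, 8 without wild-type replicate 1, 4 without *Meioc*-null replicate 2). Gate comparisons without the replicate block gave 1507, 409 and 33 calls. The cause of these changes was not tested, apart from the genes and cells that each setting removes.

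As a mean percent of members' UMIs, S-phase genes moved from 0.671 to 0.728 at the 5% mitochondrial limit and 0.702 without somatic-rich cells, and G2/M genes from 1.18 to 1.54 and 1.23, with 1.13 at 3 *Dnmt3b* UMIs and 1.06 with *Meioc* limited. The genotype difference of G2/M genes, 0.0159 points, turned to -0.00133 and -0.0319 without the replicate 2 libraries, ranged up to 0.0636 with a library left out, and was 0.156 under the 5% mitochondrial limit. Mitochondrial genes moved to 7.05 with *Meioc* limited and 4.44 under the limit itself, and X-linked genes to 1.92 without somatic-rich cells. Sertoli genes fell to 0.00521 and 0.00502 under those settings, myoid genes to 0.0163 without doublets and 0.00232 without somatic-rich cells, and Leydig genes moved to 0.00328 at 3 *Dnmt3b* UMIs and 0.00343 with *Meioc* limited. Of the single genes named, 892 of 980 alternative values kept their call, 66 missed the threshold, 21 were not tested because the gene fell below the detection filter and 1 reversed (*Tmsb4x* against *Dmrtb1* cells, -0.16 without somatic-rich cells).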
